A study of Sus scrofa with 4 samples.

Results

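Genes of the macrophage lineage were read in pig spleen: the scavenger receptor gene CD163, the mannose receptor gene MRC1, the Fc receptor gene FCGR1A, the lipopolysaccharide co-receptor gene CD14, the sialoadhesin gene SIGLEC1, and SPI1, which encodes the transcription factor PU.1. They were chosen by name, with earlier results of these data known. Their probes were those whose transcript identifier in the scanner files is a RefSeq transcript of the gene. Of 8 genes sought, 6 had such a probe and 2, CSF1R and MSR1, had none and were not analysed here. The 6 genes carried 10 probes (4 for CD163, 2 for CD14 and 1 for each of the others) among 3020 genes that could be named on the array. The transcripts were NM_213976 for CD163, NM_001255969 for MRC1, NM_001033011 for FCGR1A, NM_001097445 for CD14, NM_214346 for SIGLEC1 and NM_001001865 for SPI1.

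The arrays held total RNA of spleen from Minnesota miniature swine, 3 of genotype wildtype (WT 1, WT 2 and WT 3) and 1 of genotype IL2RG +/-, called KO here. IL2RG encodes the common gamma chain, a subunit of several lymphocyte cytokine receptors, that for interleukin 2 among them. Per the study, KO pigs were made by cutting an exon of the gene with TALENs in cultured cells and by nuclear transfer from edited colonies that carried small deletions on one copy, and the arrays used KO pigs that still had a thymus. Which colony the spleen came from is not given in the sources used here. The labels give no age or sex, and nothing in them says that the WT arrays came from separate animals, so their spread may be partly technical. The KO group is a single array, and every comparison sets that spleen against the spread of 3 WT arrays.

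Macrophages of the spleen clear senescent red cells, immune complexes and microbes from blood. They recognise these cargoes through surface receptors: CD163 binds haemoglobin carried by haptoglobin, MRC1 binds mannose-bearing glycans, FCGR1A binds IgG with high affinity, CD14 passes lipopolysaccharide to TLR4, and SIGLEC1 binds sialic acid. PU.1 is an ETS family factor needed for myeloid and B cell development, and many macrophage genes carry its binding sites. CD14 marks monocytes as well as macrophages, and FCGR1A and SIGLEC1 are known to be induced by interferons.

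Levels are given as the log2 of the signal minus that of the 75th percentile of its array, so a level of 0 is that percentile, and differences are KO minus the WT mean. The 75th percentile itself was a signal of 640.3 to 819.6. WT 1 and KO lay on slide 1, and WT 2 and WT 3 on slide 2, so the difference from WT 1 is the only one within a slide. The WT arrays differed from each other in several cell type markers. The mean level of 4 granulocyte genes was -1.81, 1.73 and 4.43 across WT 1 to WT 3, against 1.28 on KO. All 3 WT arrays were thus apart, with WT 1 lowest. The mean level of 2 erythroid genes was -3.02, 3.43 and 3.46 across WT 1 to WT 3, against -1.25 on KO, so here WT 1 alone stood apart from the other WT arrays. Differences of CD163, MRC1, FCGR1A, CD14, SIGLEC1 and SPI1 are therefore also given against WT 1 alone and without WT 1. Many other genes below are given against the WT mean only, and the size of such differences may include differences between the slides. The targeted gene IL2RG was lowest on KO on both of its probes, with differences of -0.77 and -2.12 that limma did not call (adjusted p = 0.578 and 0.402).

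All 10 probes were well above background on all 4 arrays, so each of the 6 genes was measured in WT and in KO spleen. In KO, CD163, MRC1, CD14, FCGR1A and SPI1 were at least 2-fold above every WT array, whereas SIGLEC1 was not. This was 5 of 6 genes, and over all tested probes the share meeting the same condition was 3.42%, or 7.33% over the 2742 named genes. Such shares are a description and no test, because the genes were chosen with earlier results of these data known. KO was above every WT array on 9 of 10 probes, against 27.0% of all probes. Counted by gene this was 5 of 6, against 38.1% of named genes. The median difference of the 6 genes was 3.13, beside -0.11 over all tested probes and 0.08 over named genes. After adjustment over all 33464 probes tested, limma called 0 of the 10 probes and 0% of all probes (smallest adjusted p 0.284 for the 10 probes and 0.0715 for any probe). Without adjustment, 9 of the 10 probes had a limma p below 0.05 and were at least 2-fold higher, against 4.46% of all probes. By gene, 5 of 6 had such a p and were higher, against 10.7% of named genes. With 1 array against 3, an exact permutation test cannot give a p below 0.25.

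**Figure D1:**
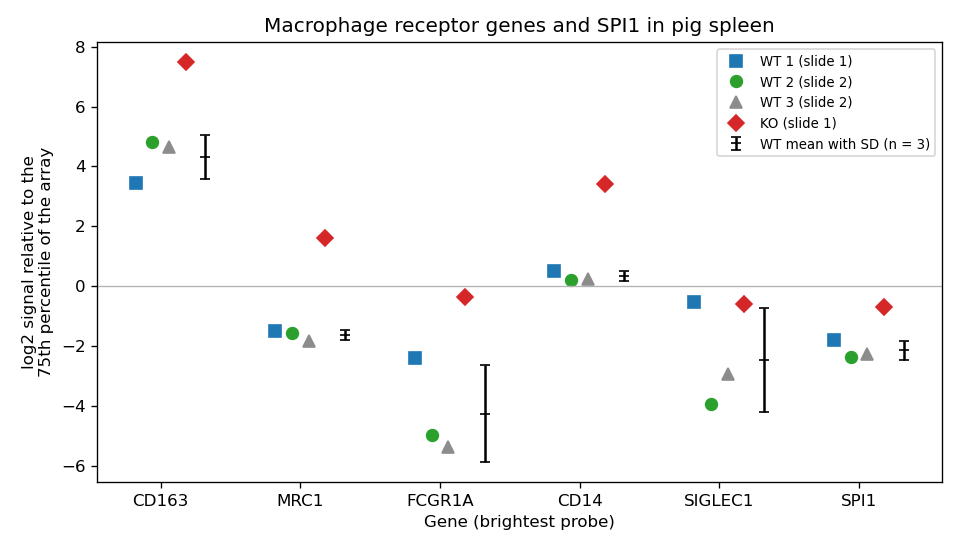
Level (log2 signal minus the log2 75th percentile, vertical axis) for the brightest probe of each gene on each of the 4 arrays, with the WT mean and SD (n = 3) as black bars. The KO array lies above the 3 WT arrays for every gene shown except SIGLEC1, for which KO at -0.58 lies next to WT 1 at -0.54.

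CD163 encodes the haemoglobin scavenger receptor of resident macrophages, and its brightest probe read 3.46, 4.82 and 4.66 across WT 1 to WT 3, against 7.48 on KO. WT 1 was the lowest array and KO the highest, with no overlap. The WT mean was 4.31 ± 0.74 (SD, n = 3) and KO exceeded it by 3.17 with a standard error of 0.66, an 8.98-fold higher signal (limma, adjusted p = 0.387). The other 3 probes gave differences of 3.47, 4.18 and 4.13, from the brightest to the dimmest, so all 4 probes placed KO above every WT array. The brightest probe reached a processed signal of 115286 on KO without being marked as saturated. CD163 was the gene for which KO and WT 1 differed most within slide 1, by 4.02 on the brightest probe and by 4.23, 4.61 and 4.52 on the others. On slide 2 WT 2 and WT 3 were above WT 1, and KO stood 2.66 above the higher of them, or 6.33-fold.

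MRC1 encodes the mannose receptor, an endocytic lectin of tissue macrophages. It read -1.51, -1.56 and -1.82 across WT 1 to WT 3, against 1.62 on KO. The WT arrays lay close together, with an SD of 0.17, and KO was far above them. KO exceeded their mean by 3.25 with a standard error of 0.29, a 9.54-fold higher signal (limma, adjusted p = 0.284). Within slide 1 it was 3.13.

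CD14 encodes the surface protein that hands lipopolysaccharide to the TLR4 complex. Its brighter probe read 0.52, 0.22 and 0.25 across WT 1 to WT 3, against 3.41 on KO, and its dimmer probe -1.98, -2.70, -2.55 and 1.01 on the same arrays. The WT arrays were close together on the brighter probe, with an SD of 0.17, and less so on the dimmer, with an SD of 0.38. On both probes WT 1 was the highest of them, and KO was separate from them. The differences were 3.08 with a standard error of 0.29 and 3.42 with a standard error of 0.41, or 8.48-fold and 10.7-fold (limma, adjusted p = 0.284 and 0.303). Within slide 1 they were 2.89 and 2.99.

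SPI1 had the smallest difference of the 6 genes from the WT mean, though not from WT 1, where that of SIGLEC1 was smaller. It read -1.80, -2.38 and -2.28 across WT 1 to WT 3, against -0.70 on KO, so that KO was again the highest array. The WT mean was -2.15 ± 0.31 (SD, n = 3) and the difference 1.45 with a standard error of 0.37, a 2.73-fold higher signal (limma, adjusted p = 0.404). Within slide 1 it was 1.09, or 2.13-fold. PU.1 is also a factor of B cells. Of the 4 B cell genes measured, 3 were lower in KO than in every WT array, against 24.2% of all named genes. Among the 3 were MS4A1 at -4.92 and CD79A at -4.12 from the WT mean (limma, adjusted p = 0.284 and 0.303), while CD72 was higher by 1.49. In RNA of whole spleen, more cells of a type and more RNA per cell cannot be told apart, and the part of cell composition in these values was not tested.

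FCGR1A, the gene of the high-affinity IgG receptor, was dim in WT and spread widely. It read -2.41, -4.99 and -5.38 across WT 1 to WT 3, against -0.37 on KO. KO was the highest array, and WT 1 was above WT 2 and WT 3 by 2.78 on average. KO exceeded the WT mean by 3.89 with a standard error of 1.36. Among the brightest probes of the 6 genes this was the largest difference, though dimmer CD163 probes reached 4.18 and 4.13. The FCGR1A difference was also among the least precise (limma, adjusted p = 0.440). Within slide 1 it was 2.04, a 4.12-fold higher signal, and without WT 1 it was 4.82, so its size depended on the WT array used. The processed signals behind the 2 lowest values were 25.6 on WT 2 and 19.6 on WT 3, with a spot error given by the scanner software of 17.3% and 19.3%.

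SIGLEC1 encodes sialoadhesin, a lectin of marginal zone and other tissue macrophages. It read -0.54, -3.95 and -2.92 across WT 1 to WT 3, against -0.58 on KO. Here KO fell inside the WT range, level with WT 1 and above both arrays of slide 2. The difference of 1.90 had a standard error of 1.46 (limma, adjusted p = 0.636), and within slide 1 it was -0.03. Without WT 1 it was 2.86 and without WT 2 it was 1.16. The SD of the WT arrays was 1.75, close to the size of the difference itself.

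**Figure D2:**
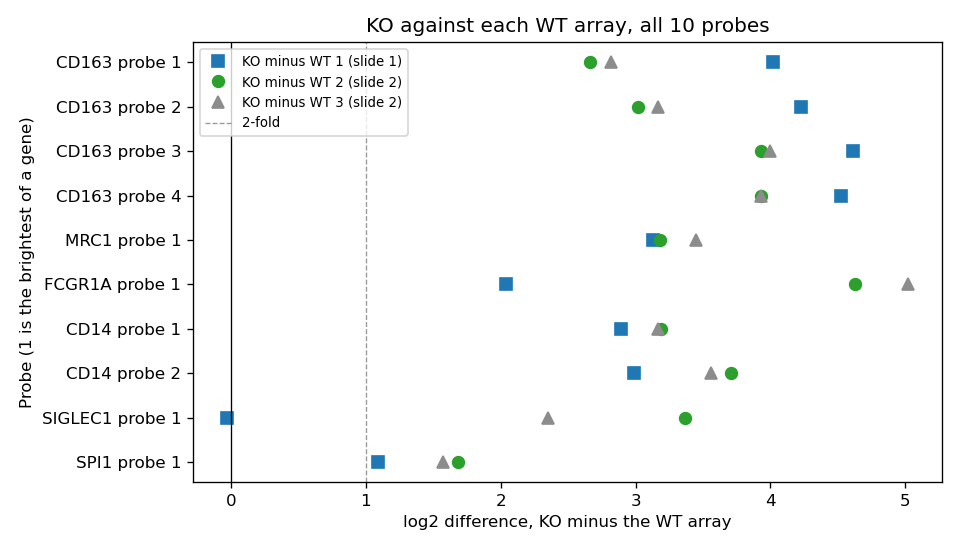
Log2 difference (horizontal axis) between KO and each WT array for all 10 probes, with WT 1 sharing slide 1 with KO, and a dashed line at 2-fold. The 4 CD163 probes lie furthest right against WT 1, between 4.02 and 4.61, while FCGR1A lies furthest right of all probes against WT 2 and WT 3, and SIGLEC1 against WT 1 is at -0.03.

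Deviation of WT 1 from the other WT arrays divided the 6 genes. WT 1 minus the mean of WT 2 and WT 3 was -1.27 for CD163 on its brightest probe, 0.18 for MRC1 and 0.53 for SPI1. For CD14 it was 0.29 on the brighter probe and 0.65 on the dimmer, and it was 2.78 for FCGR1A and 2.89 for SIGLEC1. FCGR1A and SIGLEC1 were thus higher on WT 1 and CD163 lower, whereas MRC1 and the brighter CD14 probe were nearly level. With the slide as a block, which sets KO against WT 1 and takes the spread from WT 2 and WT 3, the adjusted limma p was 0.216 for CD163, MRC1 and CD14, 0.239 for FCGR1A, 0.276 for SPI1 and 0.985 for SIGLEC1. Without WT 1, the differences were 2.74 for CD163, 3.31 for MRC1, 3.18 for CD14 and 1.63 for SPI1. At least 2-fold above WT 1 were 9 of the 10 probes, against 7.94% of all probes tested.

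In order of size the differences of the brightest probes ran from FCGR1A (3.89) through MRC1 (3.25), CD163 (3.17), CD14 (3.08) and SIGLEC1 (1.90) to SPI1 (1.45). Neighbours in this order differed by less than the larger of their standard errors. The order also depended on the probe taken. The brightest CD163 probe gave the smallest difference of its gene, the others being 3.47, 4.18 and 4.13, and the dimmer CD14 probe gave 3.42. To compare the receptors with SPI1 on a scale that a shift of a whole array leaves alone, the log2 ratio of each receptor to SPI1 was taken on each array and centred on its WT mean. For MRC1 this ratio was -0.24, 0.30 and -0.06 on WT 1, WT 2 and WT 3 and 1.81 on KO, so MRC1 was 3.50-fold further above WT than SPI1 was. For CD14 it was -0.16, 0.12 and 0.04 in WT and 1.64 on KO. For CD163 it was -1.20, 0.73 and 0.47 in WT and 1.72 on KO. All 3 receptors therefore stood above the WT range of the ratio. FCGR1A reached 2.45 on KO with 1.5 on WT 1, and SIGLEC1 reached 0.45 on KO, inside its WT range, whose highest value was 1.57. These ratios were not tested beyond the comparison with the WT arrays.

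**Figure D3:**
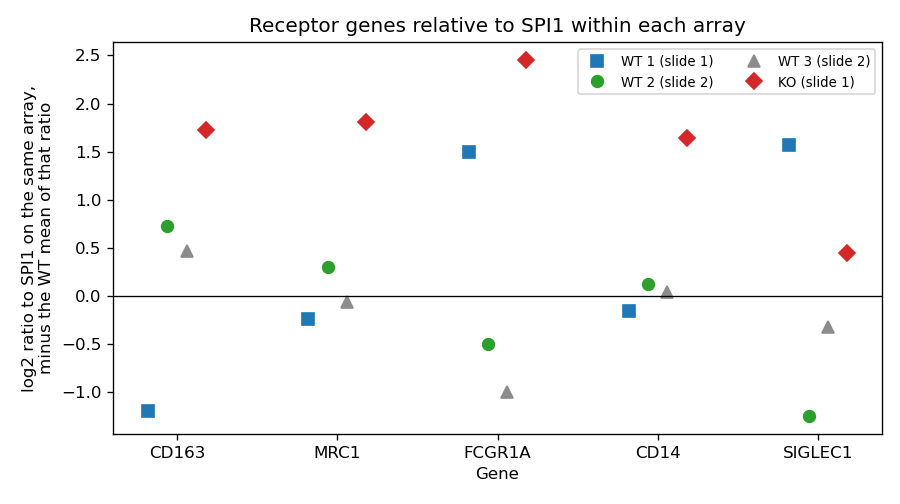
Log2 ratio of each receptor gene to SPI1 on the same array, minus the WT mean of that ratio (vertical axis), for each of the 4 arrays. KO lies above all WT arrays for CD163 (1.72), MRC1 (1.81), FCGR1A (2.45) and CD14 (1.64), and inside the WT range for SIGLEC1 (0.45).

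Genes whose profile over the 4 arrays came closest to each of the 6 were then named, by the root mean square difference of log2 values centred on the mean of the 4 arrays, among 2431 other named genes well above background on all arrays. MRC1 and CD14 were close to each other, at 0.13, where CD14 was the nearest gene to MRC1 and MRC1 the second nearest to CD14. The nearest to CD14 was ASCL2, at 0.07, and STX11 was the third nearest to both, at 0.15 from CD14 and 0.27 from MRC1. For CD163 the nearest were BDKRB1 at 0.38, IL1B at 0.41 and TNFAIP6 at 0.43. MRC1 was the eighth nearest gene to CD163, at 0.60. The nearest to FCGR1A were IFNG and CXCL10, both at 0.41, and IFIT3 at 0.47, and to SIGLEC1 they were SPRP at 0.13, ATP4B at 0.54 and RNF5 at 0.58. SPI1 had P2RY12 and LRPAP1 at 0.02 and NFKBIA at 0.04, but its profile was a common one, with 139 genes within 0.25, where CD14 had 8, MRC1 2, SIGLEC1 1 and CD163 and FCGR1A 0. With only 4 arrays such likeness is a description.

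Other genes tied to macrophage recognition, signalling and effector function, not all particular to macrophages, were read from a list of 80. Of these, 42 were measured. Against the WT mean, KO was higher for 39 and lower for 3, against 54.7% higher over all named genes, and 12 were at least 2-fold above every WT array, against the 7.33% given above. An unadjusted limma p below 0.05 was reached by 17 of the higher and 0 of the lower genes, where over all named genes 10.7% reached it as higher and 3.87% as lower, and limma called 0 after adjustment over all probes. The median difference was 0.99, and 0.70 within slide 1, beside 0.08 over all named genes.

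Partners of CD14 numbered 4. MYD88, the adaptor of Toll-like receptors, differed by 1.89, TLR4, the lipopolysaccharide receptor, by 1.56 and LY96, which encodes the MD-2 subunit of the TLR4 complex, by 1.26, with adjusted limma p of 0.428, 0.391 and 0.457. All 3 were above every WT array. LBP, the plasma protein that loads lipopolysaccharide onto CD14, was not well above background on KO and was so on only 2 WT arrays. As measured it read -5.59, -3.96 and -4.47 across WT 1 to WT 3, against -5.90 on KO. The difference was -1.22 (limma, adjusted p = 0.575), and -0.31 within slide 1.

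Fc receptors and their adaptors numbered 8, of which 7 were higher. TREM1, an activating receptor of neutrophils and monocytes, read -5.03, -4.54 and -4.58 across WT 1 to WT 3, against -0.55 on KO, a difference of 4.17 that exceeded those of the brightest probes of the 6 genes, though not that of a dimmer CD163 probe at 4.18 (limma, adjusted p = 0.284). It was 4.48 within slide 1. FCGR3A, the low-affinity IgG receptor also found on NK cells, differed by 1.72, and FCER1G, the signalling chain that FCGR1A shares with other Fc receptors, by 1.00 (limma, adjusted p = 0.444 and 0.435). The exception was TREM2, at -0.27 and inside the WT range.

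Among 6 other scavenger and lectin receptors, CLEC7A, which encodes the beta-glucan receptor Dectin-1, differed by 1.74 and SCARB2, a lysosomal membrane protein, by 1.16, whereas the fatty acid and thrombospondin receptor gene CD36, also carried by platelets and endothelium, was below every WT array at -1.68 (limma, adjusted p = 0.552, 0.412 and 0.453). Scavenger receptors thus did not all differ from WT in the direction of CD163. Of 8 integrins and other myeloid surface genes, all 8 were above every WT array, against 38.1% of all named genes. The largest differences were those of the chemokine receptor gene CCR1 at 1.68, CD40 at 1.66 and the chemokine receptor gene CCR2 at 1.35 (limma, adjusted p = 0.425, 0.332 and 0.608). Within slide 1 they were 1.09, 1.58 and 0.22, and the WT arrays spread widely for CCR2, with an SD of 1.11. Of the growth factors and receptors sought only CSF2, the gene of GM-CSF, had a named probe. Its spot exceeded background on KO alone, at a level of -3.57. As measured it differed by 3.10 from the WT mean (limma, adjusted p = 0.426). When each WT value was raised to at least the lowest signal well above background on its array, KO was 3.97-fold higher.

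Transcription factors other than SPI1 numbered 6, all with a positive difference. CEBPB, a C/EBP factor of activated macrophages, differed by 3.42, more than SPI1 did, the liver X receptor gene NR1H3 by 0.74 and KLF4 by 0.59, with adjusted limma p of 0.393, 0.545 and 0.656. Of 9 phagocyte effector genes all were above every WT array, beside the same 38.1%. The lysozyme gene LYZ differed by 3.99, and NCF1, a subunit of the phagocyte oxidase, by 1.93 (limma, adjusted p = 0.371 and 0.410). The complement genes C1QA, C1QB and C1QC, abundant in resident macrophages, differed by 0.99, 0.71 and 1.00, and AIF1, which encodes the macrophage protein IBA1, by 0.83. These differences were smaller than those of CD163, MRC1 and CD14, and within slide 1 they were 0.40, 0.38, 0.43 and 0.68.

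**Figure D4:**
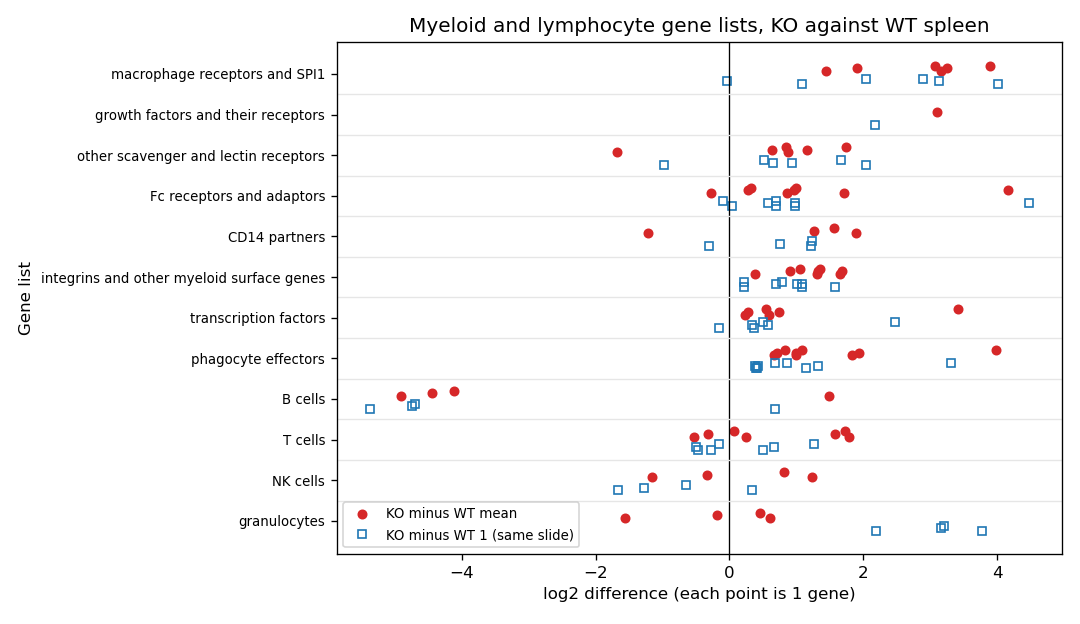
Log2 difference of each measured gene (horizontal axis) by gene list, as KO minus the WT mean (red circles) and as KO minus WT 1 on the same slide (blue squares), with CSF2 and LBP at their measured values. Of the 42 measured genes from the list of 80, 39 lie right of 0 against the WT mean, while 3 of 4 B cell genes lie between -4.92 and -4.12.

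Markers of other cells that a spleen holds were read beside these genes. Monocytes share S100A8, S100A9 and S100A12 with granulocytes, and for all 4 granulocyte genes measured of 8 sought KO was inside the WT range, with a median difference of 0.14 but 3.19 within slide 1. Over all named genes, KO was above every WT array for 38.1% and below every one for 24.2%. Against these shares, 3 of 7 T cell genes measured were above and 0 below, and of 4 NK cell genes 1 was above and 1 below. Their median differences were 0.25 for T cells and 0.24 for NK cells, but -0.15 and -0.96 within slide 1. The 3 stromal genes had a median difference of 0.00, but DCN, which encodes the matrix proteoglycan decorin, was at least 2-fold above every WT array with a difference of 1.31 (limma, adjusted p = 0.410). The 3 endothelial genes had a median of -0.97, and -0.65 within slide 1. Of these, CDH5 and VWF were below every WT array, with differences of -0.97 and -2.76 (limma, adjusted p = 0.468 and 0.465). The 2 megakaryocyte genes had a median of -1.84, but 1.08 within slide 1. Of these, ITGA2B was level with WT 1, at -0.01 on KO against 0.00, and below WT 2 and WT 3 at 2.09 and 4.33. The 2 dendritic cell genes had a median of -0.18, and -0.41 within slide 1, with both inside the WT range. Whether any of these moved with the macrophage genes for a shared reason was not tested.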

How the data were processed

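The study amplified spleen RNA with Cy3 label and, per the labels, placed 1 sample on each porcine 4x44K array. The deposited intensity values are processed signals of Feature Extraction 11.0.1.1, background-corrected and not normalised between arrays. A deposited table of log2 values, made by the authors and quantile-normalised as its columns show, was used only as an alternative (27402 probes). The file headers give 1 channel per array, although the study's methods describe a dye pair. The arrays lay on 2 slides.

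Control spots and outlier spots were left out (28 probes), the signal was taken to log2 and the 75th percentile of each array was subtracted. Of 43575 probes, 33464 well above background on at least 1 array were tested, each array having 66.1% to 72.7% of spots well above background and 0 saturated. Transcript identifiers were matched without versions to RefSeq genes of Sscrofa11.1, for names only, which named 15.3% of probes. No coordinates are printed, since the files name no build. The probe with the highest mean stood for a gene. The number of arrays limits precision.

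The test of KO against WT used limma 3.58.1 (lmFit and eBayes, two-sided) in R 4.3.3, tested on simulated data, with Benjamini-Hochberg adjustment over all tested probes, and called at an adjusted p of 0.05 with a 2-fold difference. The fit had 2 residual degrees of freedom, all from WT, and KO, as a single array, was taken to have the spread seen in WT. Alternatives were other scalings, normexp (offset 50, on median spot signals, as these files hold no mean spot signal), filters, the slide as a block, an intensity trend, the methods' t-test and leaving out each WT array. Files were read with Python 3.11.15, pandas 2.3.3 and numpy 2.4.6. Named in each role group were the 3 genes furthest from the WT mean, besides the 6 genes and the 3 named genes nearest to each, except for items not reported here. TREM2, LBP, the C1Q genes, AIF1 and the genes of other cell types were named after their values were seen. The 6 genes and all lists were chosen with earlier results of these data known.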

Additional observations from a re-analysis of the deposited data

How the results depend on the processing

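The number of genes at least 2-fold above every WT array, 5 as reported, lay between 4 and 6 under 12 alternatives, with 6 without WT 1, 5 against WT 1 within slide 1 and 4 under normexp. The median difference of all 6 genes, 3.13, was 2.63 under normexp and 2.47 with the slide as a block, and between 2.97 and 3.37 under the others. The block leaves WT 1 as the only reference, and the cause under normexp was not tested. Over all probes the median, -0.11 as reported, ranged from -0.22 with the percentile over probes detected on all arrays to 0.13 under the median shift. Limma called 0 of the 10 probes under 12 alternatives, and the unadjusted methods' t-test gave 6, or 0 once adjusted. Over all probes, normexp gave 4, an intensity trend 6 and the unadjusted t-test 1333, the first 2 for causes not tested and the last because it is unadjusted. SIGLEC1 reversed to -0.03 with the slide as a block, where WT 1 alone is the reference, and lay between 1.16 without WT 2 and 2.86 without WT 1. The differences of the other 5 genes kept their sign, with CD163 between 2.74 and 4.02, MRC1 between 2.94 and 3.49, FCGR1A between 2.04 and 4.82, CD14 between 2.83 and 3.33 and SPI1 between 1.09 and 1.69. Adjusted limma p of the 6 genes lay between 0.0737 without WT 1 and 0.985. Of the 42 measured genes from the list of 80, 38 or 39 were higher under scaling, block and replicate alternatives. No paired analysis was possible because the KO label carries no replicate number to pair with WT, and the slide block is the nearest to a pairing that the design gives. A single KO array and 3 WT arrays limit precision.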
